A study of Mus musculus with 2 samples.

Results

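The ADAM metalloproteases described here are 8 genes, Adam8, Adam9, Adam10, Adam11, Adam12, Adam15, Adam17 and Adam19, taken by symbol from a table of 46095 genes. They were selected on their raw counts in these same libraries, so their differences are a description and carry no test. The table holds 2 RNA libraries of mouse acute myeloid leukaemia (AML), from leukaemia-initiating cells sorted out of bone marrow as positive for Mac1 (the integrin chain encoded by Itgam) and c-Kit (Kit). Both came from C57BL/6 mice aged 8 weeks. One library is labelled wild type with a title ending in Scr, and the other P2x7-KO with a title ending in KD, where P2x7 is the ATP-gated cation channel encoded by P2rx7. The sources used here give neither the oncogene that drove the leukaemia nor whether cells of several mice were pooled. With 1 library per label there is no replicate check, and no p-value was computed. P2rx7 itself had 229 counts under the wild-type label and 543 under the P2x7-KO label, a ratio of 2.27 (1.94 to 2.66, 95% counting interval). Its log2 ratio of 1.18 came to 0.88 once transcript length and GC content were adjusted for. Transcript counts of the targeted gene were thus higher, not lower, under the P2x7-KO label. Gene-level counts cannot check the labels further, and libraries are named by label throughout.

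ADAM proteins are membrane-anchored proteases that cut the outer parts of other membrane proteins close to the cell surface, a process called ectodomain shedding. A typical member is made as an inactive precursor, loses its prodomain to a furin-type convertase, and then carries a zinc-dependent protease domain, a disintegrin domain that can bind integrins, and a transmembrane segment. In blood cells ADAM10 is best known for cutting NOTCH receptors and ADAM17 for releasing tumour necrosis factor and the interleukin-6 receptor, while ADAM8 is a leukocyte member of the family.

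The coding sequence of the zinc-binding site is shown because it sets apart Adam11, the member that was lower. The capitals mark the codons of the 3 zinc-binding histidines and of the catalytic glutamate in the metzincin signature, and positions are in the mm10 build (GRCm38, GENCODE M21).
Adam8 (chr7:139987893-139987925, minus strand): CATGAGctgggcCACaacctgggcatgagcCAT
Adam9 (chr8:24990326-24990358, minus strand): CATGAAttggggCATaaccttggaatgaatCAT
Adam10 (chr9:70754296-70761585, plus strand): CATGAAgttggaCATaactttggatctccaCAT
Adam12 (chr7:133961158-133961190, minus strand): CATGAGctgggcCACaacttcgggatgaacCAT
Adam15 (chr3:89344780-89344812, minus strand): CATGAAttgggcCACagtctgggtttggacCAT
Adam17 (chr12:21336732-21336764, minus strand): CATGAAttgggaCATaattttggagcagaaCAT
Adam19 (chr11:46125050-46125082, plus strand): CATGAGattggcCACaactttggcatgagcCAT
Adam11 (chr11:102773613-102773657, plus strand): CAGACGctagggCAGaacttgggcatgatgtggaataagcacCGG
All 3 histidine codons and the glutamate codon were present in 7 of the 8 genes, Adam12 included. Adam11 had 0 of the 3 histidine codons and no glutamate codon at the positions aligned with Adam19, the member closest to it, and is known as a neural family member without protease activity. Its run is 45 bases long against 33 because the alignment holds an insertion. The sites lie in coding exons, exon 11 in Adam8, Adam9, Adam12, Adam15 and Adam19, exon 12 in Adam17 and exon 13 in Adam11. In Adam10 an intron between exons 9 and 10 splits the site, which therefore spans 7290 bases of genome. Over whole coding sequences, translated identity between pairs of members ran from 26.2% (Adam11 and Adam17) to 47.5% (Adam12 and Adam19). Adam11 and Adam19, which lay at opposite ends of the differences between the libraries, shared 38.7%.

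Of the 8 genes, 7 were detected and 7 had at least 20 counts over both libraries, the minimum for a gene to be counted. Counts were scaled with the TMM method and are given as CPM, counts per 1000000. The 2-fold rule asked for a ratio of 2 or more in either direction whose 95% counting interval left out equality. By that rule 3 members were higher under the P2x7-KO label (Adam8, Adam10 and Adam19), 1 was lower (Adam11) and 3 were neither (Adam9, Adam15 and Adam17). Over all 13363 genes counted, 10.8% were called higher and 8.95% lower, 19.8% in all. Nothing is read from the members' share, since they were chosen with these ratios known. The summed level was 398.6 CPM under the wild-type label and 565.4 under the other, a ratio of 1.42 (1.37 to 1.47), and the median log2 ratio of the 7 was 0.95. In bulk RNA, fewer cells of a type and less RNA per cell cannot be told apart.

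**Figure D1:**
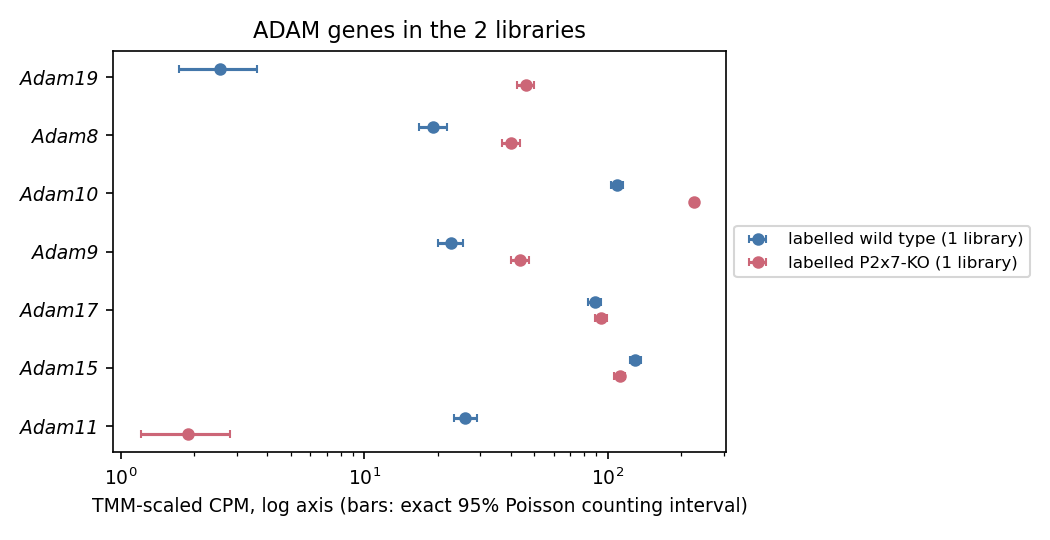
TMM-scaled CPM (x, log axis) of the 7 detected ADAM genes (y) in the library labelled wild type (blue) and the library labelled P2x7-KO (red). Points are single libraries and bars are exact 95% Poisson counting intervals, which are hidden where narrower than the point. Adam19 stands at 2.55 and 46.1 CPM and Adam11 at 26.1 and 1.88 CPM. The blue and red points of Adam15 lie close to each other, as do those of Adam17.

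The meltrin-related members cleave growth factor precursors and other surface proteins, and Adam19 (meltrin beta), a sheddase of neuregulin precursors, differed most. Adam19 occupies 46055992 to 46147343 of chromosome 11, plus strand. It had 31 counts under the wild-type label, 2.55 CPM (1.73 to 3.62), and 587 counts under the P2x7-KO label, 46.1 CPM (42.4 to 49.98). The ratio was 18.1 (12.6 to 26.9), rank 13 from the top among 13363 genes counted by log2 ratio. Thus a gene near the bottom of the measured range in one library was of middling abundance in the other. Adam9 (meltrin gamma), on chromosome 8 from 24949611 to 25016927 on the minus strand, had 276 and 558 counts, 22.7 (20.1 to 25.5) and 43.8 CPM (40.3 to 47.6). Its ratio of 1.93 (1.67 to 2.24) lay just under 2-fold, and total count scaling brought its log2 ratio from 0.95 to 1.02, past it. Adam12 (meltrin alpha), on chromosome 7 from 133883199 to 134232146, had 0 counts in both libraries. A count of 0 allows up to 0.247 CPM under the wild-type label and 0.236 CPM under the other, taking 3 counts as the limit. Adam15 (metargidin), whose disintegrin domain can bind integrins, lies on chromosome 3 from 89338542 to 89349996 and had 1584 and 1428 counts. Its 130.2 (123.9 to 136.8) and 112.1 CPM (106.4 to 118.1) gave a ratio 1.16-fold lower (1.08 to 1.25) in the library labelled P2x7-KO, a direction that turned once length and GC were adjusted for.

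Both of the broad sheddases were abundant, and they differed between the libraries to unlike degrees. Adam10, at 70678997 to 70780229 of chromosome 9 (plus strand), had 1329 counts under the wild-type label, 109.3 CPM (103.5 to 115.3), and 2896 under the P2x7-KO label, 227.4 CPM (219.2 to 235.9). Its ratio was 2.08 (1.95 to 2.22). Adam17, on chromosome 12 from 21323509 to 21373632 on the minus strand, had 1079 and 1195 counts. Its levels of 88.7 (83.5 to 94.2) and 93.8 CPM (88.6 to 99.3) gave a ratio of 1.06 (0.974 to 1.15), an interval that includes equality. The intervals of the ratios of Adam10 and Adam17 thus did not overlap, although both proteases share many targets. Adam8, on chromosome 7 from 139978932 to 139992562, had 233 counts under the wild-type label, 19.2 CPM (16.8 to 21.8), and 512 under the other, 40.2 CPM (36.8 to 43.8). Its ratio was 2.10 (1.79 to 2.46).

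Adam11, the member without the zinc signature, ran against the others called. It occupies 102761439 to 102780262 of chromosome 11, plus strand. It had 317 counts under the wild-type label, 26.1 CPM (23.3 to 29.1), and 24 under the P2x7-KO label, 1.88 CPM (1.21 to 2.80). It was 13.8-fold lower (9.12 to 21.9), rank 35 from the bottom of the 13363 genes. Adam11 and Adam19 therefore changed places, each at its low level in the library where the other was well measured.

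**Figure D2:**
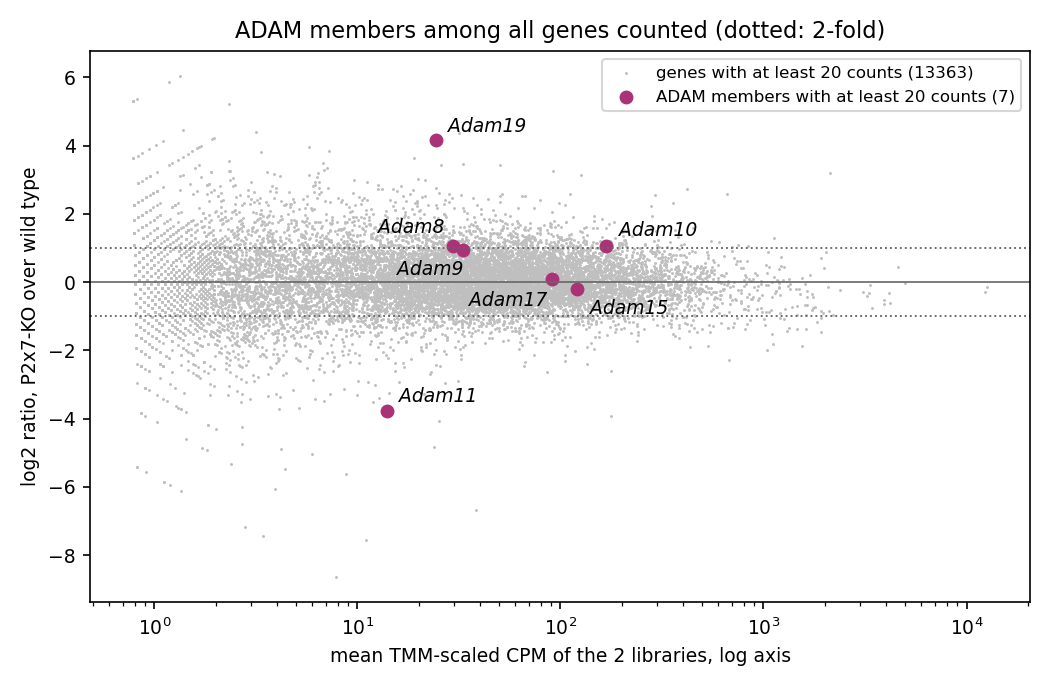
Log2 ratio of P2x7-KO over wild type (y) against the mean TMM-scaled CPM of both libraries (x, log axis) for the 13363 genes counted (grey) and the 7 ADAM genes (purple). Dotted lines mark 2-fold. Adam19, at 4.16, and Adam11, at -3.76, lie far outside these lines, and the other 5 lie near or between them.

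The genes most like Adam19 were taken as the named mRNA genes nearest in log2 ratio among the 2149 with a mean CPM within 1.5-fold of it, over these 2 libraries. They were Pydc4 (35 and 768 counts, log2 ratio 4.37), Stard9 (34 and 449, 3.64) and the leukaemia inhibitory factor receptor gene Lifr (67 and 775, 3.46). Pydc4 has close relatives with which it may share reads, so its value is uncertain. For Adam11, among 1510 candidates, they were the histidine decarboxylase gene Hdc (266 and 24 counts, -3.51), Ripk4 (285 and 28, -3.39) and the RAP1 GTPase-activating gene Rap1gap (220 and 23, -3.30). Likeness over 2 libraries is 1 number per gene and says no more than that these ratios were near each other.

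The sort genes were both detected. Kit stood at 46.0 and 67.6 CPM (ratio 1.47, 1.32 to 1.64) and Itgam at 186.9 and 542.6 CPM (2.90, 2.77 to 3.045). Itgam thus passed the 2-fold rule, higher under the P2x7-KO label. Once length and GC were adjusted for, the log2 ratio was 0.17 for Kit and 1.24 for Itgam. Totals were nearly equal, at 12456212 and 12435916 counts, so depth hardly differed between the labels. Ratios moved with transcript length and base composition over the whole table. Of 4 equal groups of genes by transcript length, the longest (at least 4376 bases) had a median log2 ratio of 0.48 and the shortest (up to 1669 bases) -0.47. Of 4 by GC content, the lowest (up to 45.5%) had a median of 0.38 and the highest (at least 54.8%) -0.36.

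The members fall on different sides of these trends. Adam10, with a 4593-base transcript of 42.1% GC, lies in the groups with the highest medians on both, and a spline adjustment for length and GC took its log2 ratio from 1.06 to 0.57 (0.48 to 0.67). That ended its 2-fold call. Adam17 (4469 bases, 45.1% GC) lies there too and went from 0.08 to -0.31 (-0.43 to -0.19). Adam15 (2975 bases, 59.7% GC) went the other way, from -0.22 to 0.14 (0.03 to 0.24). Adam8 (3117 bases, 54.9% GC) went from 1.07 to 1.20 (0.98 to 1.43) and Adam9 (4044 bases, 46.6% GC) from 0.95 to 0.66 (0.45 to 0.87). Adam19 (6383 bases, 53.1% GC) kept 3.83 (3.33 to 4.42) of 4.16, and Adam11 (5102 bases, 60.1% GC) kept -3.67 (-4.36 to -3.10) of -3.76. After adjustment 2 members were at least 2-fold higher (Adam8 and Adam19) and 1 was lower, while 7.81% of 12666 genes with a length were higher and 5.38% lower.

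**Figure D3:**
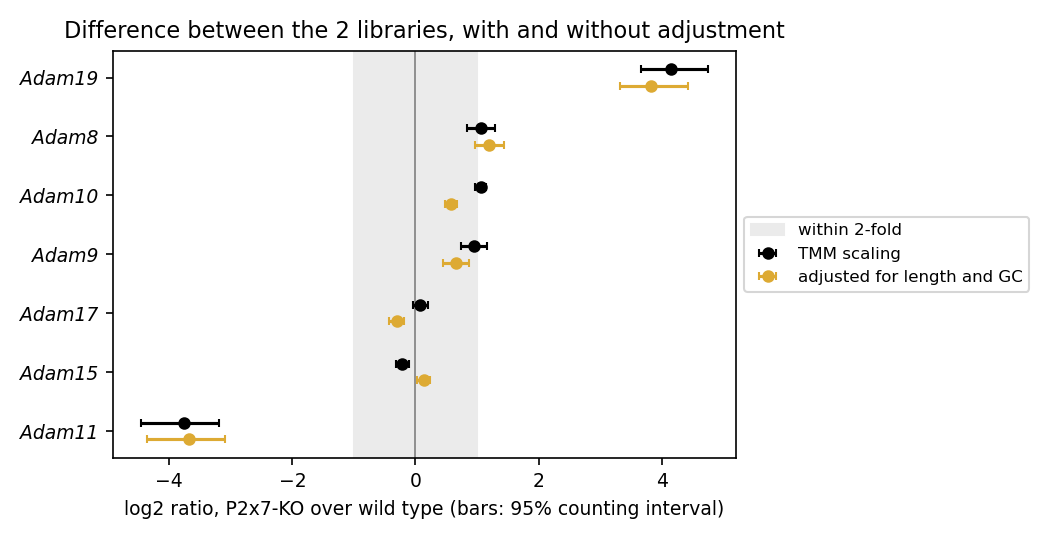
Log2 ratio of P2x7-KO over wild type (x) for the 7 detected ADAM genes (y), with TMM scaling (black) and with the length and GC adjustment (yellow). Bars are 95% counting intervals and the grey band marks ratios within 2-fold. The points of Adam19, Adam8 and Adam11 stay outside the band under both, though the bars of Adam8 reach into it. Adam10 moves from 1.06 to 0.57, inside the band.

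Counting without known strand leaves some of these values uncertain. Exons of Adam15 share 1263 of 6145 bases with the antisense gene 4731419I09Rik. Those of Adam19 share 587 and 480 of 7115 with the antisense genes Gm16033 and Gm16034. The data hold no counts for these antisense genes under these names. Adam17 shares 311 of 7154 exon bases with Iah1 on the opposite strand, which had 310 and 279 counts, and Adam8 shares 46 of 4638 with Gm16201. For Adam9, Adam10 and Adam11 the annotation shows no overlapping gene.

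Levels were compared between genes per kilobase of transcript. In the library labelled wild type Adam15 led at 43.8 CPM per kilobase (41.6 to 45.98), before Adam10 at 23.8 (22.5 to 25.1) and Adam17 at 19.8 (18.7 to 21.1). Adam8 at 6.14 (5.38 to 6.99), Adam9 at 5.61 (4.97 to 6.31) and Adam11 at 5.11 (4.56 to 5.70) followed with intervals that overlapped from each to the next, and Adam19 came last at 0.399 (0.271 to 0.567). Under the P2x7-KO label Adam10 led at 49.5 (47.7 to 51.4), then Adam15 at 37.7 (35.8 to 39.7) and Adam17 at 21.0 (19.8 to 22.2). Adam8 at 12.9 (11.8 to 14.1), Adam9 at 10.8 (9.96 to 11.8), Adam19 at 7.22 (6.65 to 7.83) and Adam11 at 0.369 (0.237 to 0.550) followed, and no neighbours overlapped. On this scale Adam15 and Adam10 thus exchanged the lead and Adam19 and Adam11 the last place. The length and GC adjustment of the ratios was not applied to these levels. It took the log2 ratio of Adam10 from 1.06 to 0.57 and that of Adam15 from -0.22 to 0.14. Whether the exchange of the lead holds under it was not tested. Per kilobase of coding sequence, Adam15 (50.2) and Adam10 (48.6) were nearly level in the former library, so their order there depends on the length used. On that scale the lower members also changed order, to Adam11 (11.2), Adam9 (8.76) and Adam8 (7.73) under the wild-type label. Under the P2x7-KO label Adam9 (16.9), Adam19 (16.7) and Adam8 (16.2) were nearly level.

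Against all genes with a length, Adam10 stood at percentile 71.3 of level per kilobase under the wild-type label and 87.3 under the P2x7-KO label, and Adam15 at 83.4 and 82.6. Adam17 stood at 67.1 and 68.9, Adam8 at 38.8 and 55.3, and Adam9 at 37.0 and 50.5. Adam19 went from percentile 4.34 to 40.3 and Adam11 from 34.9 to 3.41. Adam10, Adam15 and Adam17 together made up 83.5% and 77.5% of the summed ADAM level per kilobase. That sum was 104.7 and 139.5 CPM per kilobase. As shares of ADAM counts, Adam10 took 27.4% (26.2 to 28.7, Clopper-Pearson) and 40.2% (39.1 to 41.4), Adam15 32.7% (31.3 to 34.0) and 19.8% (18.9 to 20.8), and Adam19 0.639% (0.435 to 0.906) and 8.15% (7.53 to 8.81). The family thus remained mostly Adam10, Adam15 and Adam17 under both labels.

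**Figure D4:**
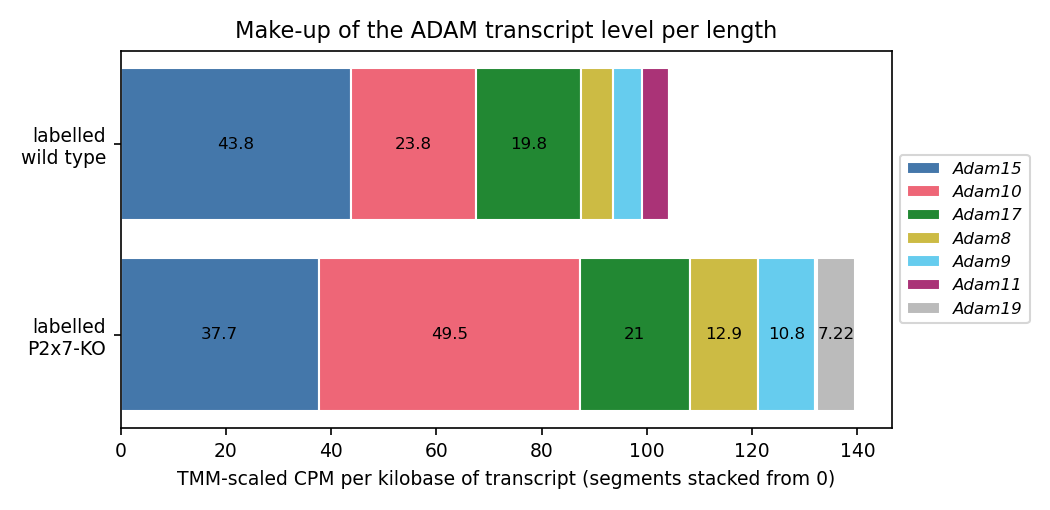
Stacked bars of TMM-scaled CPM per kilobase of transcript (x) for the 7 detected ADAM genes in each library (y), 1 library per bar and without error bars. Adam15 (43.8) is the widest segment under the wild-type label and Adam10 (49.5) under the P2x7-KO label, where Adam19 (7.22) appears and Adam11 (0.369) is too narrow to see.

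The promoters of Adam19 and Adam8 are printed because these are the members that stayed at least 2-fold higher under every scaling and adjustment tried. RefSeq windows on GRCm38.p6 run from 250 bases before to 50 after the start and were matched for 5 of the 8 genes (Adam8, Adam10, Adam15, Adam17 and Adam19). Both strands were searched for TGANTCA (the AP-1 site), GAGGAAGT (PU.1), TTGCNNAA (C/EBP), TGATTNAT (PBX-HOX) and CACGTG (E-box), and the matches are in capitals. The GC box GGGCGG was searched too and is left in lower case, since 35.7% of windows hold it. Both printed windows have 1. Adam19 has 3 windows in the table, of which the one at the start of the transcript used is shown.
Adam19 promoter (chr11:46055734-46056033, plus strand): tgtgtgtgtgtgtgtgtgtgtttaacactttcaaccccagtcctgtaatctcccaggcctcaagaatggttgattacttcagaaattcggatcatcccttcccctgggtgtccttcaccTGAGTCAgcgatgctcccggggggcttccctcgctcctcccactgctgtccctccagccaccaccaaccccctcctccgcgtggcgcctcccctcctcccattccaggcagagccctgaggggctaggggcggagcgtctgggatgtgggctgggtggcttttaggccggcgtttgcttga
Adam8 promoter (chr7:139992513-139992812, minus strand): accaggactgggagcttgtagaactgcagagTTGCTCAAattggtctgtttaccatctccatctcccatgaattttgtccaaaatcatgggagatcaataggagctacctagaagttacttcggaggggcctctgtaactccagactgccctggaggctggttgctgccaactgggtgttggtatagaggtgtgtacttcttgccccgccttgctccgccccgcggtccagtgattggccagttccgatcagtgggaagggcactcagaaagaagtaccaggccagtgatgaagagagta
The Adam19 window held 1 match to TGANTCA, which 7.81% of 32851 windows of the same length hold, and the Adam8 window 1 match to TTGCNNAA, held by 10.8%. Neither window matched the PU.1 letters (3.20% of windows), the PBX-HOX letters (3.22%) or CACGTG (7.15%), and no matches overlapped each other. Adam15 also matched TTGCNNAA, and Adam10 and another of the Adam19 windows, chr11:46054252-46054551, matched CACGTG. The windows of Adam8 and Adam19 held 6 and 11 CpG dinucleotides at 52.3% and 60.3% GC, against medians of 7 and 52.7% over all windows. Those of Adam10, Adam15 and Adam17 held 32, 25 and 30 CpG at 73.3%, 65.3% and 70.0% GC.

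Apart from Adam3, the rest of the ADAM family had few or no counts. Of 26 other family genes, 17 had 0 counts in both libraries, Adam28 and Adam33 among them, and 3 had at least 20 counts. Adam1a, a gene of the sperm fertilin complex, had 16 and 5 counts and was 3.35-fold lower (1.17 to 11.7). The sperm gene Adam3 had 108 and 219 counts, a ratio of 1.94 (1.53 to 2.46), and Adam2 had 13 and 7. The median log2 ratio of these 3 was -0.91, against 0.00497 over all genes counted. Adam1a and Adam2 lay near the minimum of 20 counts, and Adam3, with the most counts, stood at 0.95. Of the 3, 0% were called higher and 33.3% lower, against 10.8% and 8.95% over all genes counted. Nothing is read from a median or shares over 3 genes.

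Among 29 partners and regulators of ADAM proteins, 21 were counted, of which 2 were higher and 1 was lower. The remaining 18 were neither, and the median log2 ratio was 0.18. The 9.52% called higher and 4.76% called lower compare with 10.8% and 8.95% over all genes. The adaptor genes Sh3pxd2a (49 and 126 counts, 2.46-fold, 1.75 to 3.49) and Sh3pxd2b (31 and 75, 2.31-fold, 1.502 to 3.63) were higher. They encode TKS5 and TKS4, scaffolds of podosomes of which TKS5 binds ADAM12, ADAM15 and ADAM19, and both came under 2-fold once length and GC were adjusted for, at log2 ratios of 0.81 and 0.84. Prkca, which encodes a protein kinase C used by phorbol esters to trigger shedding, had 93 and 9 counts and was 10.8-fold lower (5.46 to 24.4). Rhbdf2, which encodes the iRhom2 carrier of ADAM17, stood at 27.7 and 43.8 CPM (ratio 1.58, 1.38 to 1.82), whereas its relative Rhbdf1 had 1 and 4 counts. Frmd8, which stabilises iRhom at the cell surface, stood at 86.4 and 78.1 CPM. Of the tetraspanins that carry ADAM10, Tspan14 stood at 59.4 and 81.7 CPM (ratio 1.38, 1.25 to 1.52), Tspan5 at 24.3 and 27.6 CPM and Tspan17 at 11.1 and 14.2 CPM. The other 3 of that group fell short of 20 counts, with 3 and 14 for Tspan33 (ratio 4.46, 1.24 to 24.2), 0 and 3 for Tspan15 and 0 and 1 for Tspan10. The prodomain convertase gene Furin stood at 133.3 and 183.2 CPM (ratio 1.37, 1.29 to 1.46). The iRhom and tetraspanin partners with at least 20 counts were thus within 2-fold between the labels.

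The protein inhibitors were scarce. Of 8 inhibitor genes 1 was counted, Timp2, at 52 and 79 counts (ratio 1.45, 1.01 to 2.10). Timp3, which encodes the main tissue inhibitor of ADAM17, had 3 and 0 counts, and Timp1 and Timp4 had 0 in both.

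A list of 80 membrane proteins held the best known ADAM substrates, 1 of which (Mica) was not matched in the table. Of 45 counted, 20 were higher (44.4%) and 4 lower (8.89%), while 21 passed neither side, against 10.8% and 8.95% of all genes counted. The median log2 ratio was 0.84, which stayed at 0.84 with Cd40 at its bound. The length and GC adjustment left 14 of the 45 higher and 3 of the 45 lower, and its median was 0.55. Over all genes with a length, 7.81% were higher and 5.38% lower. The adhesion receptor gene Vcam1 stood at 25.2 and 134.1 CPM (5.33-fold, 4.72 to 6.04). The interleukin-6 receptor gene Il6ra stood at 36.7 and 175.0 CPM (4.77-fold, 4.31 to 5.30) and the endocytic receptor gene Lrp1 at 116.0 and 448.5 CPM (3.87-fold, 3.65 to 4.10). Cd40 had 0 and 20 counts. Taking 3 counts as the limit for the former library, it was at least 6.37-fold higher. The exact 95% interval of its ratio starts lower, at 4.72. Cd40 met the minimum of 20 counts only through the library labelled P2x7-KO, where it was higher, as did Axl, Cd163 and Cd46. With a minimum of 50 counts, 18 substrates were higher and 3 lower. On the other side, the platelet and endothelial adhesion gene Pecam1 stood at 277.1 and 135.1 CPM (2.05-fold lower, 1.94 to 2.18) and the NOTCH ligand gene Jag2 at 25.9 and 11.2 CPM (2.32-fold lower, 1.90 to 2.85). Cdh1, with 43 and 16 counts, was 2.81-fold lower (1.55 to 5.35) and Hbegf, with 29 and 15, 2.02-fold lower (1.05 to 4.06), though its adjusted log2 ratio of -0.95 was within 2-fold.

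Some substrates, named for their textbook role, are set beside their protease here. The ADAM10 substrates Notch1 and Notch2 stood at 134.4 and 241.4 CPM (ratio 1.80, 1.69 to 1.91) and at 70.3 and 251.7 CPM (3.58, 3.32 to 3.87). Among ADAM17 substrates, Csf1r stood at 107.6 and 296.2 CPM (2.75, 2.58 to 2.93) and Tnfrsf1b at 58.7 and 142.8 CPM (2.43, 2.23 to 2.66), while Adam17 itself had a ratio of 1.06. Tnf, the namesake substrate of ADAM17, had 0 counts in both libraries. The neuregulin gene Nrg1, whose precursor ADAM19 can cut, had 188 and 429 counts (2.18, 1.83 to 2.60), and its adjusted log2 ratio of 0.55 was under 2-fold. Selplg, which encodes the P-selectin ligand cut by ADAM8, stood at 376.1 and 360.3 CPM. These are transcript levels, and cleavage was not measured.

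**Figure D5:**
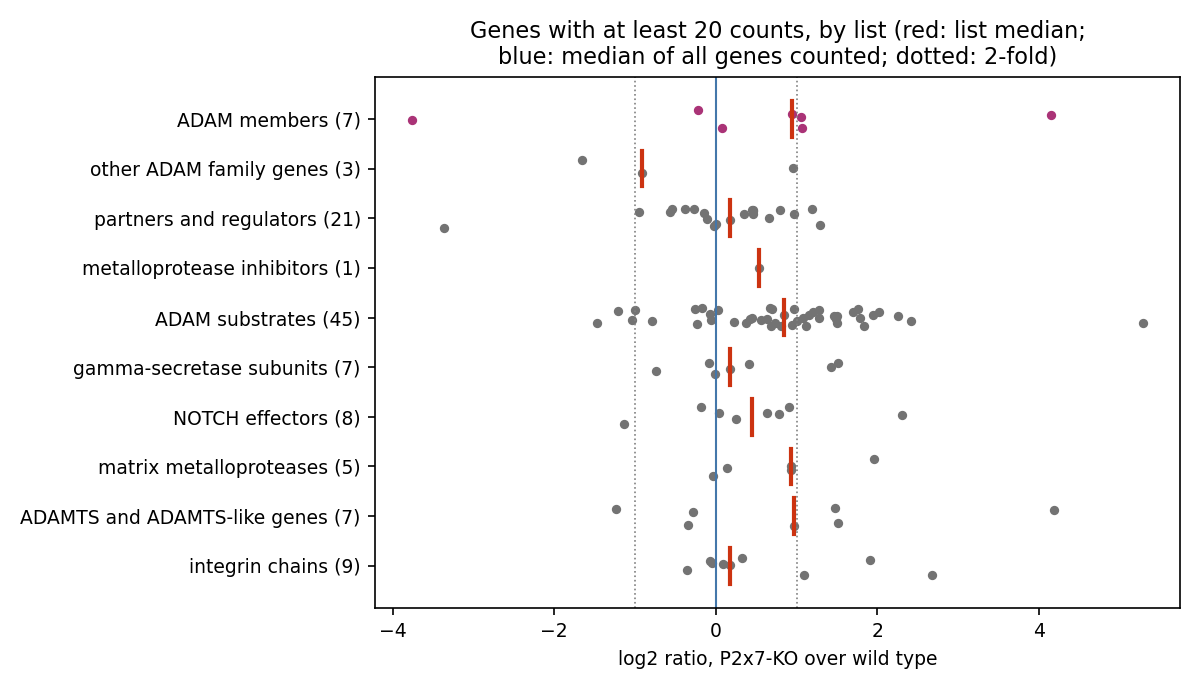
Log2 ratio of P2x7-KO over wild type (x) for every gene with at least 20 counts in each list (y, number of genes in brackets, points spread vertically for clarity). Red bars are list medians and the blue line is the median of all genes counted. Substrates have a median of 0.84 and partners of 0.18, and the ADAM members reach from -3.76 to 4.16; Cd40, at 0 counts in one library, is drawn at its value with 0.5 added.

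Gamma-secretase, which cuts the membrane stub left by shedding, had 7 subunit genes counted, of which 2 were higher and 0 lower. The median log2 ratio was 0.18. The 28.6% called higher compares with 10.8% over all genes counted, of which 8.95% were lower. The higher ones were Aph1b (46 and 139 counts, 2.89-fold, 2.05 to 4.12) and Aph1c (92 and 260, 2.70-fold, 2.12 to 3.46). They are near-identical copies whose reads the counting could split, so each value is uncertain, and the adjusted log2 ratio of Aph1c was 0.93, under 2-fold. Of 8 NOTCH effectors counted, the coactivator gene Maml2 was higher (19 and 100 counts, 5.03-fold, 3.06 to 8.70) and Nrarp lower (32 and 15 counts, 2.23-fold, 1.17 to 4.44; adjusted log2 ratio -0.94), with a median of 0.45. With 12.5% of them called in each direction, the NOTCH effectors were near the shares over all genes. The target gene Hes1 had 9 and 1 counts.

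Of related secreted and membrane proteases, 5 of 18 matrix metalloprotease genes were counted, with a median log2 ratio of 0.93. The neutrophil collagenase gene Mmp8 was the 1 called higher, at 19.5 and 75.8 CPM (3.89-fold, 3.37 to 4.50), and 0 were lower. Of 24 ADAMTS and ADAMTS-like genes, 7 were counted, 3 higher and 1 lower. The median was 0.97, and 0.32 once length and GC were adjusted for. The procollagen proteases Adamts3 (2 and 47 counts, a ratio of 22.4, 5.88 to 190.8) and Adamts2 (20 and 59, 2.82-fold, 1.67 to 4.94) and the related Adamtsl4 (28 and 85, 2.90-fold, 1.87 to 4.62) were higher. Adamts7 (32 and 14 counts) was 2.39-fold lower (1.24 to 4.85). Of 9 integrin chains that can bind ADAM disintegrin domains, 3 were higher and 0 lower, and the median was 0.18. These were Itgav (11.4 and 42.9 CPM, 3.75-fold, 3.11 to 4.55), Itga6 (46.4 and 99.2 CPM, 2.14-fold, 1.94 to 2.37) and Itga9 (3 and 23 counts, a ratio of 7.32, 2.21 to 38.1). The adjusted log2 ratio of Itga6 was 0.84, under 2-fold, which left 2 higher. Itgb1, the common beta partner, stood at 145.8 and 183.4 CPM. Over all genes counted 10.8% were higher and 8.95% lower, or 7.81% and 5.38% once length and GC were adjusted for. Before adjustment the shares higher and lower were 20% and 0% for matrix metalloproteases and 42.9% and 14.3% for ADAMTS and ADAMTS-like genes. For integrin chains they were 33.3% and 0%. These shares rest on 5, 7 and 9 genes counted. Adamts3 and Itga9 met the minimum of 20 counts only through the library labelled P2x7-KO, where they were higher. With a minimum of 50 counts, 2 ADAMTS and ADAMTS-like genes and 2 integrin chains were higher.

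Markers of several cell types differed between the libraries along with the members. Of 15 monocyte and macrophage markers 8 were higher and 1 lower, with a summed level of 2802 and 5677 CPM and none at 0. These are 53.3% and 6.67% of the 15 counted, against 10.8% higher and 8.95% lower over all genes counted. Once length and GC were adjusted for, the shares over all genes with a length were 7.81% and 5.38%. The marker lists share Csf1r, Pecam1, Cd74, Flt3, Cdh5, Kdr, Il1rl1 and Gp1ba with the substrates, and Mmp8 and Mmp9 with the matrix metalloproteases. Of 10 mast cell and basophil markers 5 were counted, 0 were higher and 2 lower (Cpa3 and Hdc, the latter also among the genes nearest to Adam11). Their summed level was 521.3 and 111.7 CPM, most of it from Cpa3 (333.6 and 22.0 CPM) and Gata2 (142.2 and 71.4 CPM). Fcer1a, Tpsb2 and Cma1 were at 0 in both. Mature neutrophil markers had 11 of 12 counted, 1 higher (9.09%) and 2 lower (18.2%), at 3733 and 3435 CPM. Once length and GC were adjusted for, 4 were higher and 1 lower. With the same adjustment, monocyte and macrophage markers had 7 higher and 0 lower, dendritic cell markers 3 higher and 1 lower, and stromal and endothelial markers 0 higher and 1 lower. Dendritic cell markers had 3 of 10 higher and 0 lower (1230 and 1196 CPM, H2-Aa and Xcr1 at 0). B lymphoid and plasma markers had 3 of 10 higher and 2 lower (142.5 and 107.4 CPM), T and NK markers 1 of 9 higher and 2 lower (35.7 and 14.1 CPM, Ncr1 at 0). Erythroid markers had 2 of 9 higher (1.32 and 11.3 CPM), megakaryocyte markers 1 of 6 higher and 1 lower (41.3 and 16.6 CPM, Pf4 and Gp1ba at 0), and stromal and endothelial markers 1 of 10 higher and 1 lower (369.1 and 192.6 CPM). The part of these markers' cells in the ADAM values was not tested.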

How the data were processed

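RNA sequencing counts of 2 libraries, 1 per genotype label, were used. The deposited table holds whole-number raw counts per gene, and the submitters' processing notes name HISAT2 2.0.4 and mm10. For the counter, its annotation and its strand setting the sources used here give nothing. Both value columns were used (0 left out).

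Counts were scaled with TMM (edgeR 4.0.16, R 4.3.3). Ratios carry exact 95% Clopper-Pearson counting intervals and levels carry exact Poisson intervals, which cover counting error only. Log2 ratios had 0.5 added to each count. Transcript length and GC content came from each gene's longest transcript in GENCODE M21, taken from the coding ones where it has any (94.8% of the genes counted were matched). Length and GC adjustment subtracted an additive spline fit over those genes, centred on its median. DESeq2 1.42.0 gave an alternative scaling. The zinc-site codons were found by translating GENCODE coding sequences, in place of the RefSeq proteins planned, and aligned with Biopython 1.88. Promoters came from RefSeq on GRCm38.p6.

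The members and gene lists were chosen with earlier results of these data known. The genes named are all members and, from each list, up to 4 genes past the 2-fold rule in each direction by the nearer interval bound, or the 2 with most counts where none passed. P2rx7, Kit, Itgam and the 3 genes nearest in log2 ratio to each extreme member, within 1.5-fold in mean CPM, complete the rule. Other genes are named for their textbook role after their values were seen. Some genes of these lists are counted in them but not reported here by name.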

Additional observations from a re-analysis of the deposited data

How the results depend on the processing

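No paired analysis was possible because each group holds 1 library and the labels carry no replicate numbers, and for the same reason no library could be left out. Of 56 values of the 7 detected ADAM genes under 8 alternatives, 53 kept their sign. The exceptions were Adam17, at -0.18 with adjustment for transcript length alone and -0.31 with length and GC content, and Adam15, at 0.14 with the latter. Adam10 came to 0.78 and 0.57 and so under 2-fold, and Adam9 came to 0.66 with length and GC content. Adam19 ranged from 3.66 to 4.22, Adam11 from -4.11 to -3.67 and Adam8 from 1.02 to 1.20. The 1196 genes at least 2-fold lower became 755 with adjustment for length alone and 682 with length and GC content. Counts in the gene lists are small, so single genes move them. With length alone, 2 NOTCH effectors were higher and 0 partners were. With length and GC content, 2 NOTCH effectors, 1 gamma-secretase subunit, 2 matrix metalloproteases and 0 partners were higher, and 0 NOTCH effectors lower. A count minimum of 10 gave 2 NOTCH effectors, 1 matrix metalloprotease and 2 other ADAM genes lower. A minimum of 50 gave 0 ADAMTS genes, 0 NOTCH effectors and 0 other ADAM genes lower. Without a minimum, 2 NOTCH effectors, 1 matrix metalloprotease and 2 other ADAM genes were lower and 4 partners higher. DESeq2 scaling and total count scaling each gave 2 substrates lower, and total count scaling gave 2 matrix metalloproteases and 1 other ADAM gene higher. A minimum of counts changes which genes are counted, by its construction. For the other changes the cause was not tested.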
